A study of Mus musculus with 23 samples.

Results

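Pparg, Cebpa, Cebpb and Cebpd, the core transcription factors of fat cell formation, were examined for chromatin accessibility before the start of differentiation, with and without siRNA against Kdm5c. They are 4 of the 11533 genes to which the authors gave a peak on any day. Each had 1 such peak on each of the 3 days, and every other peak within the gene or within 50 kb of it was added. This gave 84 of 153043 deposited peaks: 42 of 84019 on day -2, then 20 of 31970 on day -1, and lastly 22 of 37054 on day 0. The cells were 3T3-L1, an established mouse preadipocyte line, and the assay was ATAC-seq, which counts where a transposase could cut into accessible chromatin. The tested cells received 50 nM of an ON-TARGET siRNA pool against Kdm5c on day -3, and their controls 50 nM of a non-targeting scramble pool. Both were reverse-transfected with Lipofectamine RNAiMAX, and nuclei were taken after 24, 48 and 72 hours, on days -2, -1 and 0. There were 4 libraries in each of 6 groups, except that Kdm5c siRNA on day 0 had 3, numbered 1, 2 and 4. The siRNA acts on the transcript, so accessibility at the Kdm5c gene is no check of the knockdown.

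PPAR-gamma, the product of Pparg, is a nuclear receptor that binds DNA together with RXR and is required for fat cells to form. In cultured preadipocytes, the leucine zipper factors C/EBP-beta and C/EBP-delta are induced early by the hormone mixture that starts differentiation, and they activate Pparg and Cebpa. PPAR-gamma and C/EBP-alpha then maintain each other and switch on the genes of the mature fat cell. Kdm5c is an X-linked enzyme that removes methyl groups from lysine 4 of histone H3, a mark of promoters and enhancers. All libraries described here precede the addition of that hormone mixture.

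The promoters carry the first result, so the 300-base windows around the annotated starts are shown for 3 of the members. They come from RefSeq (GRCm38.p6) and run from 250 bases before the start to 50 after it, all on the plus strand. Capitals mark matches on either strand. The motifs searched were the cyclic AMP response element or CRE, spelled TGACGTCA, and its core TGACG, which the full element contains. Next came the C/EBP motif, spelled TTGCNNAA. The E box was searched as CACGTG. The CCAAT box was searched by the letters of its name. The GC box was searched as GGGCGG. Last was the TATA box, searched as TATAAA.
Cebpb, chr2:167688665-167688964: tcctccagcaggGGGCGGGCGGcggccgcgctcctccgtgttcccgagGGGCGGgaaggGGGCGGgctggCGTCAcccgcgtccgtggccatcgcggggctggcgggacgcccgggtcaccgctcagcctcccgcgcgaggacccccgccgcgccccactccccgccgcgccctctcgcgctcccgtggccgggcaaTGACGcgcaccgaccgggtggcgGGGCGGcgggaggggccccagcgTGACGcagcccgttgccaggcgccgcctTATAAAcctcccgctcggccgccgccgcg
Cebpa, chr7:35119043-35119342: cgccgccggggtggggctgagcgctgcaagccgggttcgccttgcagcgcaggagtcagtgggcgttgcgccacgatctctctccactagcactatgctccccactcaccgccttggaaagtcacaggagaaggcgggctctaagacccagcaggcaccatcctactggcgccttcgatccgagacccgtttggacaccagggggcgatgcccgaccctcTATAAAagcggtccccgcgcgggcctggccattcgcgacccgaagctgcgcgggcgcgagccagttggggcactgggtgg
Pparg, upstream start, chr6:115360894-115361193: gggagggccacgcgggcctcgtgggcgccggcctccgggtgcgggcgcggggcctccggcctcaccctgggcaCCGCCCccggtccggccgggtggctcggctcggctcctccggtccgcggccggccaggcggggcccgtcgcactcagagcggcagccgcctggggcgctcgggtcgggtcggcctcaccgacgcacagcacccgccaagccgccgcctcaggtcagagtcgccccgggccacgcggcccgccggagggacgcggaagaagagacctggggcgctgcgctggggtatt
Pparg, downstream start, chr6:115421816-115422115: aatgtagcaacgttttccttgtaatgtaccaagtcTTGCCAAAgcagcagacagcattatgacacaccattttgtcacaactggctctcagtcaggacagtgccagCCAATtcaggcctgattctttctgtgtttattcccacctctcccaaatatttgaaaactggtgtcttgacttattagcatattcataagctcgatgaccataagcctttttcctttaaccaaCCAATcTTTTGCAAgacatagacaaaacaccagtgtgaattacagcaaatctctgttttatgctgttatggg
The upstream start of Pparg is the one known for the widely expressed Pparg1 form, and the downstream start the one known for Pparg2, the form restricted to fat cells. The Cebpb window held 3 CRE cores, 5 GC boxes of which 2 overlap, and a TATA box match at position 21, after the start. The Cebpa window held 1 TATA box, at position -30 from the start. The window of the upstream Pparg start held 1 GC box, and that of the downstream start held 2 C/EBP matches and 2 CCAAT boxes. Of 32851 such windows over all genes, 20.8% held the CRE core, 10.8% the C/EBP motif, 37.4% the CCAAT box, 35.7% the GC box and 13.6% the TATA box. The full CRE stood in 1.79% and the E box in 7.15%, and in none of the 4 windows shown.

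The windows of Cebpb, Cebpa and the upstream Pparg start lay wholly inside a peak on all 3 days, whereas that of the downstream Pparg start held no peak on any day. Over all genes, 38.5%, 32.9% and 34.3% of windows touched a peak on days -2, -1 and 0. The nearest peak to the downstream Pparg start was 8.9 kb away on day -2, 40.9 kb on day -1 and 24.9 kb on day 0. That window had a GC content of 40.3% and an observed to expected CpG ratio of 0.17, whereas the windows inside peaks had 80.7% and 1.03 (Cebpb), 67.3% and 0.85 (Cebpa), and 80.3% and 0.91 (upstream Pparg start). Among the 11765 windows with a ratio of at least 0.6, 81.8%, 73.8% and 76.3% touched a peak on days -2, -1 and 0. Among the 21086 windows below it, 14.3%, 10.1% and 10.9% did. Another annotated start of Pparg, downstream of the first on chr6 at position 115362349, had 97 of its 300 bases inside a peak on day -2 and none on days -1 and 0. A match describes the letters of a window only.

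Outside the promoters, the loci differed in how much accessible DNA surrounded them. Pparg had 20, 11 and 14 peaks on days -2, -1 and 0, of which 6, 4 and 7 lay in the gene or at its promoter (chr6:115360879-115490404). Cebpa had 6, 2 and 1, Cebpb 13, 3 and 5, and Cebpd 3, 4 and 2. The promoter peak held 84.7% to 95.7% of the Cebpa locus's counts in the libraries of day -1, and 7.65% to 17.5% of those of Pparg. On day -2 the promoter's share was 23.9% to 38.3% at Cebpb and 59.1% to 78.2% at Cebpd. At Cebpd the only other peaks on all 3 days lay about 24 kb before the gene, at the edge of Mzt2 nearer to Cebpd, and the authors gave their main peaks to that gene. Deposited peak sets differed in size between days, so the number of peaks per day describes the tables and not a change at a locus.

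**Figure D1:**
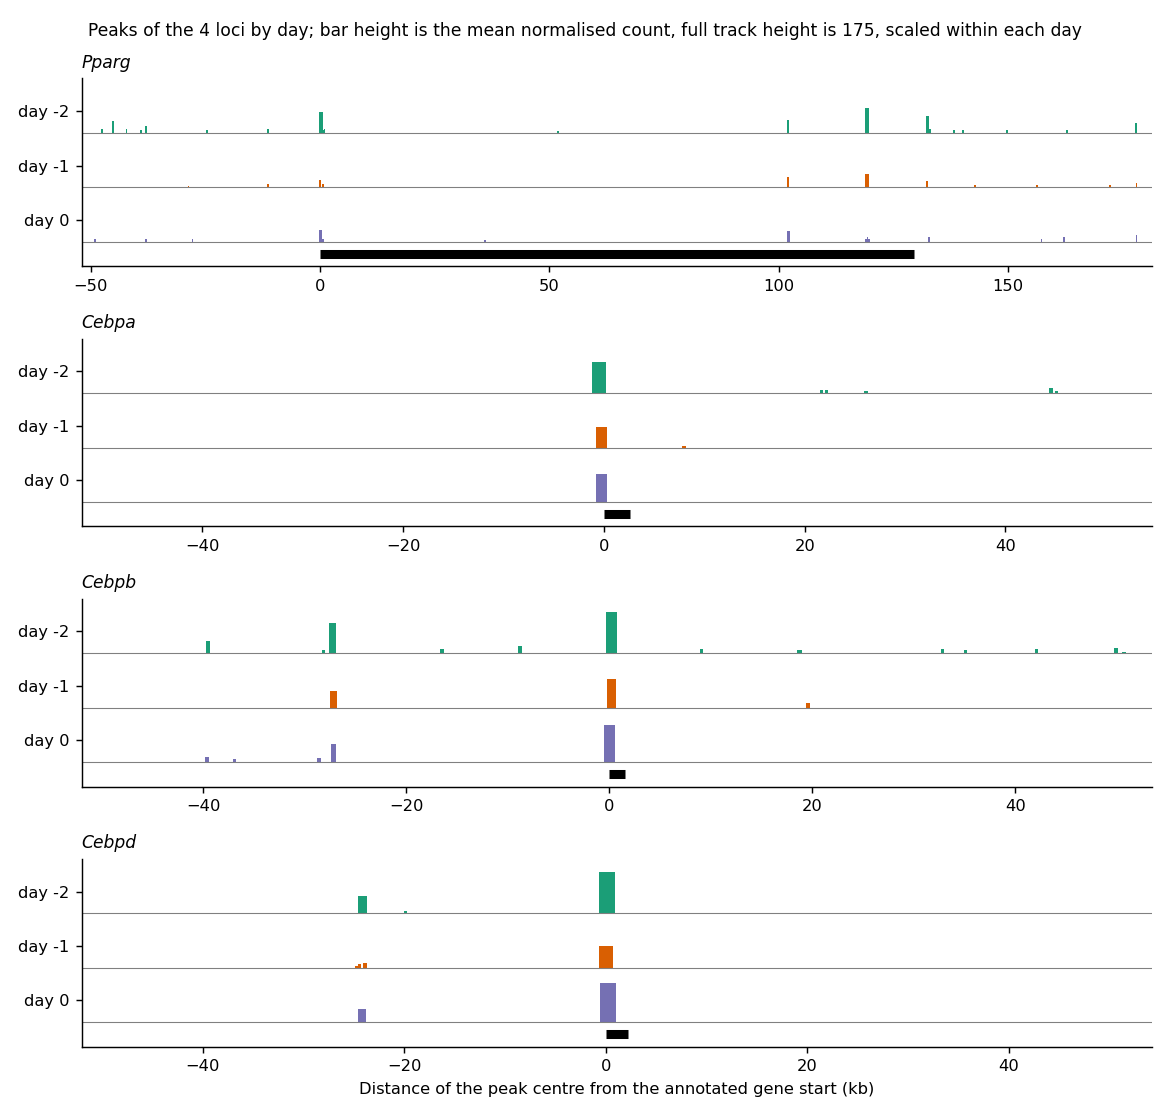
Peaks of Pparg, Cebpa, Cebpb and Cebpd on days -2, -1 and 0, placed by the distance of their centre from the annotated gene start (x axis, kb). Bar height is the mean of the Kdm5c siRNA and scramble group means of normalised counts on that day. Narrow bars are widened to be visible, and the black bar is the gene. The promoter peak is the highest on each day at Cebpa, Cebpb and Cebpd, while at Pparg the peak 119 kb after its start is higher than the promoter on days -2 and -1.

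Per length, Cebpb was the most accessible of the 4 promoters on every day, and the others lay between the 19.1 and 55.1 percentile of peaks with an authors' gene. Per kb of peak, the Cebpb promoter averaged 119, 98.99 and 114 normalised counts over the libraries of days -2, -1 and 0, at the 80.2, 87.3 and 82.9 percentile of 12265, 9688 and 10131 peaks with an authors' gene. Cebpd stood at the 52.2, 28.7 and 51.9 percentile and Cebpa at the 37.9, 48.6 and 55.1 percentile. Pparg was the lowest by day 0, at the 43.3, 30.6 and 19.1 percentile. The Cebpd peak was among the widest, with 1544, 1329 and 1611 bases at the 97.6, 96.6 and 98.7 percentile of width. In counts not divided by width, Cebpd stood at the 88.0, 78.5 and 89.8 percentile and Cebpb at the 87.9, 87.9 and 88.2 percentile. Cebpa then stood at the 77.1, 75.9 and 78.2 percentile and Pparg at the 60.0, 29.8 and 38.5 percentile. The Pparg peak changed most in width, with 871, 458 and 688 bases on days -2, -1 and 0. A normalised count is the raw count divided by the library's effective size relative to the mean.

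No peak of the 4 genes differed between Kdm5c siRNA and scramble at an adjusted p under 0.05 on any day. On day -2 the count was 0 of 29 tested member peaks, against 0.00404% of all 49455. On day -1 it was 0 of 14, against 0% of 23304, and on day 0 it was 0 of 17, against 0.00352% of 28398. The p came from edgeR's quasi-likelihood test with Benjamini-Hochberg adjustment over all peaks of the day. DESeq2 also called none of them. At an unadjusted p under 0.05 there were 3 of 29 member peaks on day -2 (10.3%, against 4.63% of all), 1 of 14 on day -1 (7.14%, against 5.38%) and 1 of 17 on day 0 (5.88%, against 5.99%). The other 13, 6 and 5 member peaks had too few counts to be tested. The median log2 fold change of the tested member peaks was 0.20, -0.05 and 0.09 on the 3 days, against 0.00, -0.00 and -0.01 over all peaks.

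Cebpb encodes C/EBP-beta, the early activator whose promoter binds CREB. Its promoter peak (chr2:167688576-167689687 on day -2) had 97.9, 151, 138 and 158 normalised counts in the Kdm5c siRNA libraries of day -2, against 111, 139, 113 and 148 in scramble. The arms overlapped, and the fitted log2 ratio was 0.10 (SE 0.15). On day -1 (chr2:167688633-167689557) the values were 57.1, 118, 66.8 and 71.6 with Kdm5c siRNA, against 126, 63.3, 115 and 114 with scramble. Of these, 3 Kdm5c siRNA libraries lay below 3 scramble libraries, while replicate 2 of each arm lay among the other arm's values, so the arms overlapped. The log2 fold change was -0.42 (SE 0.17, unadjusted p = 0.0155, edgeR adjusted p = 0.857), the only member peak of that day with an unadjusted p under 0.05. Without replicate 2 of Kdm5c siRNA it was -0.67 (unadjusted p = 0.000368, edgeR adjusted p = 0.425). Without replicate 1 of Kdm5c siRNA it was -0.30, with an unadjusted p of 0.0965 in edgeR. On day 0 (chr2:167688369-167689421) Kdm5c siRNA libraries had 127, 98.6 and 136, against 89.9, 121, 130 and 134 with scramble. The arms overlapped again, and the fitted log2 ratio was 0.04 (SE 0.16).

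Cebpd encodes C/EBP-delta, induced early by glucocorticoid in the differentiation mixture. Its promoter peak on day -2 (chr16:15886651-15888195) had 144, 159, 130 and 150 normalised counts with Kdm5c siRNA, against 124, 127, 114 and 114 with scramble. All 4 Kdm5c siRNA libraries were above all 4 scramble libraries. This was the only tested member peak whose arms did not overlap in either direction on any day. Over all tested peaks, the arms were separate with Kdm5c siRNA higher at 1.51%, 1.58% and 3.11% on days -2, -1 and 0, and with Kdm5c siRNA lower at 1.35%, 1.69% and 3.11%. The log2 fold change was 0.28 (SE 0.15, 95% interval -0.01 to 0.58, unadjusted p = 0.0557, edgeR adjusted p = 0.980). On day -1 (chr16:15886663-15887992) there were 61.1, 88.2, 78.9 and 75.3 with Kdm5c siRNA, against 57.5, 66.1, 74.2 and 58.8 with scramble. On day 0 (chr16:15886718-15888329) there were 141, 124 and 115 with Kdm5c siRNA, against 114, 137, 118 and 141 with scramble. The arms overlapped on both days, with log2 fold changes of 0.25 (SE 0.17) on day -1 and -0.02 (SE 0.15) on day 0. On days -2 and 0 the mitochondrial share of counts was also separate between the arms, at 56.4% to 70.0% with Kdm5c siRNA against 70.4% to 76.3% with scramble on day -2, and 78.8% to 86.8% against 87.5% to 91.4% on day 0. The part of that share in the result was not tested beyond leaving out mitochondrial peaks.

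Pparg showed no separation of the arms. Its promoter peak on day -2 (chr6:115360794-115361665) had 75.6, 89.8, 57.3 and 52.7 normalised counts with Kdm5c siRNA, against 69.6, 72.2, 67.1 and 63.5 with scramble. The Kdm5c siRNA libraries spread on both sides of the scramble libraries. On day -1 (chr6:115360805-115361263) there were 30.0, 19.7, 17.2 and 23.9 with Kdm5c siRNA, against 33.6, 13.95, 34.99 and 23.5 with scramble. On day 0 (chr6:115360816-115361504) there were 42.9, 33.5 and 30.2 with Kdm5c siRNA, against 33.7, 45.1, 31.9 and 56.3 with scramble. The log2 fold changes were 0.03 (SE 0.19), -0.19 (SE 0.30) and -0.26 (SE 0.26) on days -2, -1 and 0. The interval on day -1 ran from -0.79 to 0.40, and that peak held 15 to 35 reads per library.

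Cebpa, whose product maintains the mature fat cell together with PPAR-gamma, also overlapped between the arms on every day. On day -2 (chr7:35118150-35119480) its promoter peak had 85.5, 123, 109.6 and 93.4 normalised counts with Kdm5c siRNA, against 116, 78.7, 87.8 and 98.9 with scramble. On day -1 (chr7:35118527-35119569) it had 68.1, 76.6, 70.8 and 68.0 with Kdm5c siRNA, against 77.7, 61.4, 61.6 and 43.8 with scramble. On day 0 (chr7:35118493-35119605) it had 106, 87.4 and 96.7 with Kdm5c siRNA, against 100.02, 66.0, 90.9 and 83.2 with scramble. The log2 fold changes were 0.12 (SE 0.16), 0.20 (SE 0.18) and 0.18 (SE 0.17) on days -2, -1 and 0, and each 95% interval included 0.

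**Figure D2:**
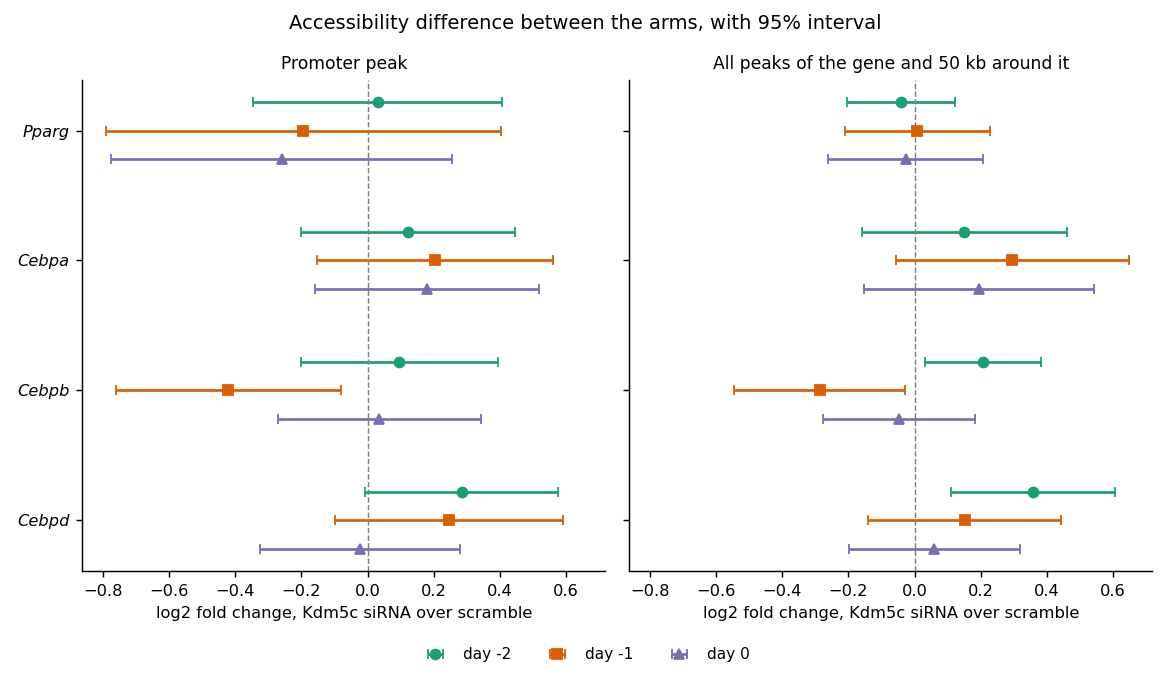
Log2 fold change of Kdm5c siRNA over scramble (x axis) with its 95% interval for the promoter peak (left) and for all peaks of the gene and 50 kb around it (right), by gene and day. The promoter interval leaves out 0 only for Cebpb on day -1, and the locus interval for Cebpb on days -2 and -1 and Cebpd on day -2. None of these was called after adjustment over all peaks or loci.

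The 4 distal peaks with an unadjusted p under 0.05 lay at Cebpb, Cebpd and Pparg. On day -2 the peak 49.9 kb after the start of Cebpb (chr2:167738734-167738944) had 35.9, 19.6, 21.3 and 12.0 normalised counts with Kdm5c siRNA, against 7.59, 9.18, 10.8 and 12.9 with scramble. Of the 4 Kdm5c siRNA libraries, 3 were above all scramble libraries, and the arms overlapped at the fourth. The fitted log2 ratio was 1.09 (SE 0.44, edgeR adjusted p = 0.980). The peak 42.2 kb before Pparg (chr6:115318819-115319060) had 7.44, 11.3, 7.36 and 9.58 with Kdm5c siRNA on day -2, against 21.5, 31.5, 12.8 and 10.5 with scramble. It was lower in 3 of the 4 Kdm5c siRNA libraries than in any scramble library, and the log2 fold change was -1.04 (SE 0.50, edgeR adjusted p = 0.980). The peak at Mzt2, 24.2 kb before Cebpd (chr16:15862669-15863562), had 64.5, 91.3, 57.3 and 52.7 with Kdm5c siRNA, against 53.1, 31.5, 48.3 and 54.7 with scramble. The log2 fold change was 0.50 (SE 0.21, edgeR adjusted p = 0.980), and the arms overlapped. It was 0.29 without replicate 2 of Kdm5c siRNA. On day 0 the peak 132.8 kb after the start of Pparg (chr6:115493684-115494157), beyond the end of the gene, had 21.4, 33.5 and 11.0 with Kdm5c siRNA, against 11.2, 12.1, 13.5 and 5.36 with scramble. The fitted log2 ratio was 1.00 (SE 0.46, edgeR adjusted p = 0.8003), and 0.54 without replicate 2 of Kdm5c siRNA. Inside Pparg, the peak 119 kb after the start was the highest of that locus on day -2. It had 69.3 ± 8.35 normalised counts with Kdm5c siRNA and 88.0 ± 14.4 with scramble (SD, n = 4 each). The log2 fold change was -0.34 (edgeR unadjusted p = 0.0554, edgeR adjusted p = 0.980).

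The remaining distal peaks were mostly narrow and low. Distal peaks of the 4 loci had a median width of 190, 218 and 170 bases and median normalised counts of 12.5, 11.1 and 11.6 on days -2, -1 and 0. Of those tested, log2 fold changes ranged from -1.04 to 1.09 on day -2 (25 peaks), from -0.30 to 0.58 on day -1 (10 peaks) and from -0.99 to 1.00 on day 0 (13 peaks). Replicate 2 of Kdm5c siRNA on day -2 had the highest value at 13 of the 27 member peaks narrower than 250 bases, and at 5 of the 15 wider ones. Over all peaks of that day it was the highest at 34.8% of narrow and 13.1% of wide peaks, and the other libraries at 6.04% to 11.2% of the narrow ones.

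When all peaks of a gene and its 50 kb flanks were summed, no locus of the 4 was called, against 0%, 0% and 0.0120% of 37972, 31760 and 33277 loci on days -2, -1 and 0. On day -2 the Cebpd locus had 214, 256, 196 and 215 normalised counts with Kdm5c siRNA, against 183, 164, 171 and 172 with scramble. Its arms were separate, with a log2 fold change of 0.36 (SE 0.12, unadjusted p = 0.00616, edgeR adjusted p = 0.956). That sum has 3 peaks, among them the promoter peak and the peak at Mzt2 described above, so it is no separate observation. The Cebpb locus had 409, 459, 429 and 414 with Kdm5c siRNA, against 353, 391, 352 and 389 with scramble, which gave 0.21 on the log2 scale (SE 0.09, edgeR adjusted p = 0.956). Both loci were higher in all 4 Kdm5c siRNA libraries than in any scramble library, which was so for 1.46% of all loci that day, and 1.57% were lower throughout. At an unadjusted p under 0.05 were these 2 of the 4 loci on day -2 (against 4.64% of all), 1 of 4 on day -1 (5.76%) and 0 of 4 on day 0 (5.84%). On day -1 the Cebpb locus was at 145 ± 30.5 with Kdm5c siRNA and 176 ± 35.9 with scramble (SD, n = 4 each), which gave -0.29 on the log2 scale (SE 0.13, edgeR adjusted p = 0.839). With 1 library left out it ran from -0.43 (without replicate 2 of scramble) to -0.19 (without replicate 1 of scramble, edgeR unadjusted p = 0.171). For the Cebpd locus the log2 ratio was 0.15 on day -1 and 0.06 on day 0. The Cebpa locus had 0.15, 0.30 and 0.19 and the Pparg locus -0.04, 0.01 and -0.03 on days -2, -1 and 0. The interval of the Pparg sum ran from -0.20 to 0.12 on day -2.

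The days were compared on regions that could be matched between the 3 peak tables, a pair counting as matched when the overlap was at least 50% of each peak. Of 13675 such regions, 7 belonged to the 4 genes: the 4 promoters, the region 27.3 kb before Cebpb, and those about 102 and 178 kb after the start of Pparg. The first overlaps the edge of Tmem189 nearer to Cebpb, the second lies inside Pparg and the third at a long non-coding RNA gene, Gm36355. Values here are on 1 scale for all 23 libraries. Day and any batch of the libraries cannot be told apart, and the peak boundaries differ between days.

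The Cebpd promoter was called higher in scramble libraries on day 0 than on both earlier days. It averaged 94.8 ± 5.68, 83.0 ± 9.93 and 132 ± 14.1 normalised counts on days -2, -1 and 0 (SD, n = 4 each). The libraries of day -2 had 100.3, 98.7, 88.1 and 92.3, those of day -1 had 74.6, 85.9, 95.8 and 75.7, and those of day 0 had 117, 143, 122 and 144. All day 0 libraries were above all earlier ones. The log2 difference was 0.67 for day 0 over day -1 (SE 0.15, edgeR adjusted p = 0.00190) and 0.48 for day 0 over day -2 (SE 0.14, edgeR adjusted p = 0.00877). These calls were 1 of 7 member regions each, against 6.86% and 20.6% of all 13674. For day -1 over day -2 in scramble it was 0 of 7, against 5.73%. With peak width as an offset the first was 0.40 and no longer called (edgeR adjusted p = 0.115). The second was then 0.42 and still called (edgeR adjusted p = 0.0308), where the offset called 15.5% of all regions. With total-count scaling the second was -0.61, where all regions had a median of -1.05. In the Kdm5c siRNA arm the promoter averaged 117 ± 13.1, 98.5 ± 14.4 and 130 ± 14.2 (SD, n = 4, 4 and 3) on days -2, -1 and 0. Neither difference was called there (0 of 7 member regions for day 0 over day -1, against 3.79% of all), with 0.39 for day 0 over day -1 (edgeR adjusted p = 0.148) and 0.13 for day 0 over day -2 (edgeR adjusted p = 0.588). The difference between the arms in the change of day 0 over day -2 was -0.34 (SE 0.20, edgeR adjusted p = 0.811), so it was not shown to differ.

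The Pparg promoter was called lower on day -1 than on day -2 in the Kdm5c siRNA arm in counts, but not with peak width as an offset. With Kdm5c siRNA it averaged 55.4 ± 15.5, 29.5 ± 7.37 and 36.5 ± 6.98 normalised counts on days -2, -1 and 0, and with scramble 53.8 ± 2.68, 34.3 ± 12.7 and 43.3 ± 11.6. In the Kdm5c siRNA arm the log2 difference of day -1 over day -2 was -0.91 (SE 0.24, edgeR adjusted p = 0.0109), 1 of 7 member regions against 6.37% of all. In scramble it was -0.67 (SE 0.24, edgeR adjusted p = 0.0843). The peak was 458 bases wide on day -1 and 871 on day -2, and per kb the Kdm5c siRNA arm had 64.4 on day -1 and 63.6 on day -2. With width as an offset the difference was 0.02. The call was lost without replicate 2 of Kdm5c siRNA on day -2 (edgeR adjusted p = 0.0987) or replicate 3 on day -1 (edgeR adjusted p = 0.0566). Day 0 over day -2 in that arm was -0.64 and not called with all libraries (SE 0.25, edgeR adjusted p = 0.0616). It was called only without replicate 3 or 4 of day -2 (edgeR adjusted p = 0.0385 and 0.0389). With width as an offset it was -0.30 (edgeR adjusted p = 0.503).

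The region 27.3 kb before Cebpb gave the other call in the Kdm5c siRNA arm. It averaged 83.2 ± 5.45, 69.2 ± 13.0 and 57.3 ± 10.2 normalised counts there on days -2, -1 and 0, and 71.6 ± 10.1, 72.2 ± 7.002 and 63.9 ± 6.02 with scramble. The log2 difference of day 0 over day -2 was -0.55 with Kdm5c siRNA (SE 0.18, edgeR adjusted p = 0.0285), 1 of 7 member regions against 15.0% of all. In scramble it was -0.15 (SE 0.18). The difference between the arms in this change was -0.40 (SE 0.26, edgeR adjusted p = 0.820), so the change was not shown to differ between them. The region was 470 bases wide on day 0 and 708 on day -2, and with width as an offset the difference in the Kdm5c siRNA arm was 0.04. The call was lost without any 1 of 4 libraries of that arm, replicates 2 and 3 of day -2 and replicates 1 and 4 of day 0, with edgeR adjusted p between 0.0521 and 0.198.

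The Cebpb and Cebpa promoters were not called between days in counts, but each was with peak width as an offset. The Cebpb promoter averaged 109 ± 21.8, 102 ± 35.1 and 124 ± 21.0 with Kdm5c siRNA and 101 ± 15.5, 135 ± 36.0 and 123 ± 20.6 with scramble on days -2, -1 and 0. The difference of day -1 over day -2 in scramble was 0.40 (SE 0.16, edgeR adjusted p = 0.116), and 0.67 with width as an offset (edgeR adjusted p = 0.00241). Without replicate 2 of scramble on day -1 it was 0.60 and called (edgeR adjusted p = 0.0167). The Cebpa promoter averaged 82.5 ± 14.9, 92.0 ± 4.88 and 99.3 ± 10.3 with Kdm5c siRNA and 75.7 ± 14.6, 79.1 ± 18.1 and 88.0 ± 14.4 with scramble. Its difference of day 0 over day -2 was 0.24 with Kdm5c siRNA and 0.22 with scramble, neither called. With width as an offset these were 0.50 (edgeR adjusted p = 0.0422) and 0.48 (edgeR adjusted p = 0.0356), and day -1 over day -2 with Kdm5c siRNA was 0.49 (edgeR adjusted p = 0.0405). That offset called 8.39% of all regions with Kdm5c siRNA and 15.5% with scramble for day 0 over day -2, where it put the median of all regions at 0.10 and 0.12. For day -1 over day -2 it called 8.89% and 9.25%, with a median of 0.16 in each arm. The Pparg region 102 kb after the start averaged 36.3, 45.05 and 37.1 with Kdm5c siRNA and 30.5, 44.7 and 32.7 with scramble. The region 178 kb after it averaged 30.1, 19.9 and 21.9 with Kdm5c siRNA and 20.6, 20.4 and 21.3 with scramble.

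**Figure D3:**
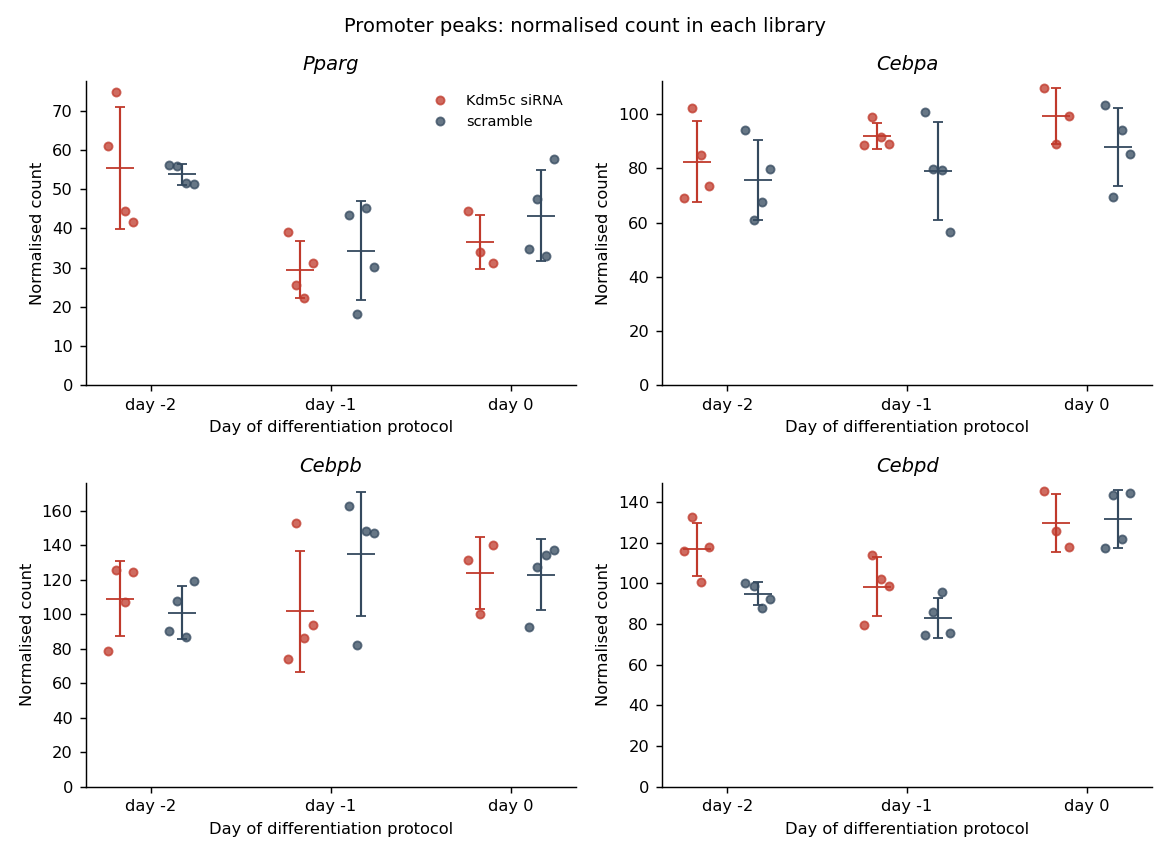
Normalised count (y axis) of the promoter peaks in each library by day (x axis), with Kdm5c siRNA left of scramble; points are libraries, the short line is the mean and the bar the SD. At Cebpd all scramble values of day 0 (117 to 144) are above those of days -2 and -1 (74.6 to 100.3), while the arms overlap at the other 3 promoters on every day.

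**Figure D4:**
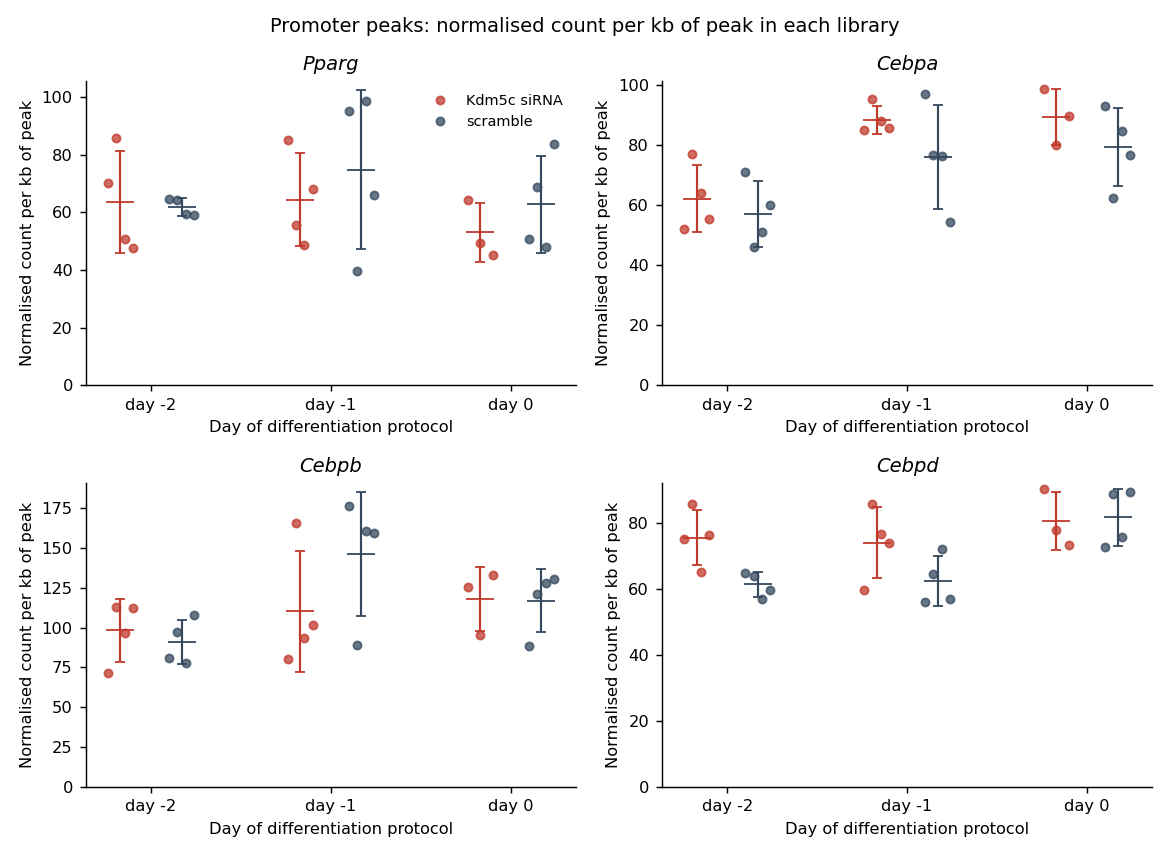
The same promoter values divided by the width of the peak on that day (y axis, normalised count per kb of peak; x axis, day), with Kdm5c siRNA left of scramble. Points are libraries, lines means and bars SD. The Pparg mean per kb lies between 53.04 and 74.9 in all 6 groups, without the drop on day -1 seen in the counts.

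Averaged over the 3 days, the siRNA difference was 0.17 for Cebpd (SE 0.09, unadjusted p = 0.0444, edgeR adjusted p = 0.724), 0.17 for Cebpa (SE 0.10), -0.13 for Pparg (SE 0.14) and -0.09 for Cebpb (SE 0.09). None of the 7 member regions was called, against 0.0146% of 13674, and 6.79% of all had an unadjusted p under 0.05. The change of the siRNA difference between days was tested in 12 comparisons of the 4 promoters, and none was called, against 0% of all regions. An unadjusted p under 0.05 was found at 4.92% of regions for day -1 minus day -2, 5.21% for day 0 minus day -1 and 6.40% for day 0 minus day -2. Of the 12, the only such p was at Cebpb, where the difference on day -1 minus that on day -2 was -0.53 (SE 0.22, unadjusted p = 0.0192, edgeR adjusted p = 0.956).

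The 4 promoters did not vary together closely across libraries. Over the 23 libraries the Pearson correlation of log2 normalised counts was 0.32 between Cebpd and Cebpa, 0.26 between Cebpd and Pparg, and 0.20 between Cebpd and Cebpb. It was 0.12 between Cebpb and Cebpa, 0.08 between Cebpb and Pparg, and -0.14 between Pparg and Cebpa. Among 6813 other promoters, the most alike to Cebpd were Fam213a (0.85), Ube2q1 (0.82) and Fam193a (0.80), and to Pparg Shisa5 (0.78), Fam126a (0.78) and Rpl13 (0.76). Those most alike to Cebpb were Gatad2a (0.68), Mphosph8 (0.66) and Zfp653 (0.66), and to Cebpa Adamts2 (0.72), Tpp1 (0.71) and Mterf2 (0.68). Over all 6813, the median correlation was 0.11 with Cebpd, 0.02 with Pparg, 0.04 with Cebpb and 0.03 with Cebpa. The genes named are the highest of that many values. The libraries share day, arm and depth, so these values are descriptions.

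None of the other genes of the pathway was called at its promoter on any day. Over all tested peaks, 0.00404%, 0% and 0.00352% were called on days -2, -1 and 0. Of 17 family members and partners, 22 upstream inducers, 19 repressors and 21 targets in fat cells, day -2 allowed tests of 12, 18, 14 and 10, day -1 of 11, 16, 13 and 10, and day 0 of 11, 17, 12 and 11. Each list had 0 to 2 genes per day at an unadjusted p under 0.05 in edgeR. Over all peaks the share was 4.63%, 5.38% and 5.99% on the 3 days. The medians of the lists ran from -0.06 to 0.14, against 0.03, -0.00 and -0.01 over all genes on the 3 days. The largest fitted difference was at Srebf1, which encodes a lipid synthesis factor, with -0.79 on day -2 (8.66 normalised counts with Kdm5c siRNA against 14.4 with scramble). Zfp467, an inducer of Pparg, had 0.65 on day 0 (edgeR adjusted p = 0.714). Foxo1, a repressor of Pparg, had 0.56 on day -1 and -0.54 on day 0 (edgeR adjusted p = 0.905 and 0.819).

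The libraries held 4474964 to 14913397 counts in peaks, of which 781309 to 3345583 were nuclear. Of 16 preadipocyte and fibroblast markers, among them Col1a1, Pdgfrb and Twist1, 11, 9 and 9 had an authors' peak on days -2, -1 and 0. Of 8 mature adipocyte markers 2, 0 and 1 did. Of 6 blood cell markers 2, 0 and 1 did, and of 4 endothelial ones 2, 1 and 1. On day -2 there were also 1 of 4 epithelial and 3 of 4 muscle markers, and none of either on the later days.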

How the data were processed

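ATAC-seq was run on 23 libraries of 3T3-L1 cells. The authors deposited, for each day, whole-number counts per peak, which entered every test, and a table of normalised signal for peaks with a gene name. Within a library, signal and count kept a fixed ratio (largest relative deviation 9.18e-10), so that table supplied only gene names. Tools named in the submitters' processing notes are HTSeq 0.9.1, MACS2 2.1.1, cutadapt 2.3, DESeq2 1.24.0 and Bowtie2 2.2.9, on GRCm38. Not given in the sources used here are the settings of each, any merging of libraries to call peaks, the handling of mitochondrial, duplicate and shifted reads, and whether starts are 0- or 1-based.

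Each day's peaks, and sums over each gene with 50 kb on both sides (spans of GRCm38.p6), entered edgeR 4.0.16 (quasi-likelihood F test, R 4.3.3) with TMM factors, filterByExpr and Benjamini-Hochberg adjustment over the whole table. An adjusted p under 0.05 was called. TMM centres the bulk of peaks at no change. Days were compared in 1 fit over 23 libraries on peaks matched by a reciprocal overlap of 50%. Standard errors came from the F statistic. DESeq2 1.42.0 was the second tool. The model fit in R was tested on simulated data, and preparation and summaries ran in Python 3.11.15. The labels do not say whether replicates were separate cultures, so the p-values cover only the scatter of these samples, possibly technical. Loci that neighbour each other share peaks. Among 33 replicate pairs none was identical or alike within sampling noise (chi-square per degree of freedom 2.05 to 5.00). Peaks given to each gene by the authors were described in every library, other peaks singly where matched on all 3 days or with an unadjusted p under 0.05, and pathway genes where called or among the 2 largest of a list. The Pparg peak at 119 kb was added after its value was seen. RefSeq windows matched 3 of the 4 genes; Cebpd is named only. The members and lists were chosen with earlier results of these data known.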

Additional observations from a re-analysis of the deposited data

Results flagged for a closer look

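In scramble libraries of day -1, the summed Cebpd locus was 81.4 normalised counts in 1 library (replicate 4). The others had 100.03, 101.8 and 102.7. In raw counts replicate 4 had 76, and replicates 1, 2 and 3 had 105, 109 and 74. Of 40 groups examined this way 1 stood out, and chance alone marks about 1 in 20.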

How the results depend on the processing

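No member peak or locus was called between the arms with RLE size factors, without mitochondrial peaks, without the filter on low counts, in DESeq2, with a replicate block or with any 1 library left out. Scaling by total counts, most of which are mitochondrial, called 3 member peaks and 4 member loci on day -2 and 6 member regions over the 3 days, while it put the median of all peaks at 0.44, 0.38 and 0.56 on days -2, -1 and 0. Over all features it called 1224, 1 and 0 peaks and 17916, 10 and 0 loci on those days, and 10799 regions over the 3 days.

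Total-count scaling turned the sign of the siRNA difference at the Pparg promoter (0.21 on day -1, 0.32 on day 0, 0.38 over 3 days), the Cebpd promoter on day 0 (0.54), the Cebpb promoter (0.39) and the region 27 kb before it (0.48) over 3 days, the Pparg locus (0.41 on day -2, 0.51 on day 0) and the Cebpb locus (0.063 on day -1, 0.50 on day 0). Between days it moved the median of all regions to between -1.63 and 0.66, and turned day 0 over day -2 at the Cebpd (-0.85 with Kdm5c siRNA, -0.61 with scramble), Cebpb (-0.73 and -0.79) and Cebpa (-0.71 and -0.86) promoters, and day -1 over day -2 in scramble at Cebpb (-1.08). Member regions called were then 7, 4 and 7 with Kdm5c siRNA and 7, 1 and 7 with scramble for day -1 over -2, day 0 over -1 and day 0 over -2. Over all regions they were 13461, 5670 and 10736 with Kdm5c siRNA and 13370, 1720 and 11964 with scramble.

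With peak width as an offset the sign turned for the region 27 kb before Cebpb on day 0 over day -2 (0.040 with Kdm5c siRNA, 0.44 with scramble), the Cebpb promoter on day -1 over day -2 with Kdm5c siRNA (0.14), and the Pparg promoter on day -1 over day -2 (0.019 with Kdm5c siRNA, 0.26 with scramble) and on day 0 over day -2 with scramble (0.023). For day -1 over -2, day 0 over -1 and day 0 over -2, member calls became 1, 0 and 1 with Kdm5c siRNA and 1, 0 and 2 with scramble, all of them higher on the later day. With Kdm5c siRNA both were the Cebpa promoter, in place of the Pparg promoter and the region 27 kb before Cebpb, which were lower without the offset. All calls became 1216, 264 and 1147 with Kdm5c siRNA and 1265, 673 and 2122 with scramble. An overlap of 80% left 1 member region of 7 and 4013 regions in all. The region left was the one about 102 kb after the start of Pparg, which was not called in the main fit. Member regions called in the main fit were no longer matched, so their calls were not tested again. Member calls, which there concern only the region left, were 0 in each contrast. All calls were 72, 17 and 292 with Kdm5c siRNA and 63, 96 and 424 with scramble. There was 1 for the siRNA difference of day 0 minus day -2.

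Values near 0 turned sign without a call: the Pparg promoter on day -2 without the filter (-0.031) and with the replicate block (-0.0097), the region 27 kb before Cebpb over 3 days with RLE factors (0.0014) and in DESeq2 (0.0012). With 10 kb windows it was the Cebpb (0.049) and Cebpd (-0.013) loci on day 0, and with 100 kb windows the Pparg locus (0.0033 on day -2, -0.019 on day -1) and the Cebpa (-0.024) and Cebpb (0.0090) loci on day 0. Counts over all peaks on day -2 were 1 with RLE factors, 1 without mitochondrial peaks, 0 in DESeq2 and 5 with the block. On day -1 there was 1 with the block. On day 0 there were 2, 2, 6 (no filter), 0 and 0. Loci were 6, 5 and 0 with the block on the 3 days, 0 in DESeq2 on day 0, and 2 and 0 with 10 kb windows on days -2 and 0. DESeq2 called 0 regions over 3 days.

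Same-numbered libraries of the arms correlated between -0.041 and 0.15 (1 of 11 pairs over 0.1). The best match of a Kdm5c siRNA library had its own number for 2 of 4 on day -2, 2 of 4 on day -1 and 0 of 3 on day 0. A pairing by number was thus not shown, nor excluded, and the replicate block is given only here. Leaving out 1 library gave 2 to 11, 0 and 0 to 10 peaks and 0 to 7, 0 to 5 and 0 to 11 loci on days -2, -1 and 0, and 2 to 3 regions over the 3 days. It gave 0 to 2, 0 and 0 to 7 regions for the siRNA difference between days. Between days it gave 546 to 904, 252 to 546 and 1318 to 2094 with Kdm5c siRNA (member regions 0 to 1, 0 and 0 to 2) and 511 to 833, 601 to 994 and 2236 to 2880 with scramble (member regions 0 to 1, 1 and 1). It turned the sign of differences that were not called. The Pparg promoter on day -2 ran from -0.14 to 0.10, and on day 0 the Cebpb promoter from -0.085 to 0.16 and the Cebpd promoter from -0.097 to 0.048. The Pparg locus ran from -0.048 to 0.053 on day -1 and from -0.076 to 0.074 on day 0. On day 0 the Cebpb locus ran from -0.10 to 0.0068 and the Cebpd locus from -0.015 to 0.12. The region 27 kb before Cebpb ran from -0.049 to 0.037 over 3 days. The cause of these changes was not tested. The Pparg promoter held 15 to 35 reads per library on day -1.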
